A study of Oryza sativa with 4 samples.

Results

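The regions described here are H4K5ac peaks that stand alone. They were chosen by their distances in the well-watered peak list: a peak on chromosomes 1 to 12 was called isolated when more than 25000 bp separated it from the neighbouring well-watered peak on each side, and the first and last peak of each chromosome were left out. The rule found 796 isolated peaks among the 28883 peaks of that list, 28794 of which lie on the numbered chromosomes. Another 27974 peaks, called other peaks below, served for comparison. The study mapped histone H4 acetylated at lysine 5 (H4K5ac) by chromatin immunoprecipitation and sequencing in rice leaves. The plants were of the cultivar Hanyou73 and had reached grain filling. Well-watered plants gave 2 of its 4 libraries and drought-stressed plants the other 2. How long and how strongly water was withheld is not given in the sources used here, nor is whether libraries of a condition came from separate plants. Each condition is represented by 1 peak list, so nothing below has a replicate error, and no p-value between the conditions is given. Read depth is unknown, and both the number and the width of called peaks move with depth and enrichment. Fewer cells carrying the mark and less of it per cell cannot be told apart in such bulk samples.

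Acetylation of the tail of histone H4 weakens its hold on DNA and neighbouring nucleosomes. It is written by histone acetyltransferases, removed by histone deacetylases, and read by bromodomain proteins. In plant chromatin the mark is found mainly at the start of transcribed genes, while the heterochromatin around centromeres, rich in transposable elements, carries little of it. Newly made histone H4 also carries acetyl groups at lysine 5 and lysine 12 when it is delivered to replicating chromatin. Which genes or repeats lie under the isolated peaks was not analysed here, because no gene table or genome of the build used for the lists was at hand. Whether the stretches are poor in genes is therefore not shown, and no DNA sequence is printed. That the stretches hold few H4K5ac peaks is the rule itself.

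The distances follow from the rule and are given as a description. The nearer neighbour of an isolated peak was a median of 33615.5 bp away and the farther one 58940 bp, beside 3920 and 10911.5 bp for other peaks. Both neighbours were more than 50 kb away for 137 isolated peaks and more than 100 kb away for 17. The peak nearest to the limit from inside was on chromosome 9 from 344602 to 345395, 25050 bp from its neighbour, and was 794 bp wide in the well-watered and 853 bp wide in the drought-stressed list. The one nearest from outside was on chromosome 11 from 8192798 to 8192966, 24987 bp from its neighbour, with widths of 169 and 178 bp. Together the 796 peaks covered 453.5 kb, while the 1342 gaps beside them spanned 75.04 Mb, 20.1% of the summed length of the 12 chromosomes. That length was taken up to the last peak of each.

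Isolated peaks came in a narrow and a broad form. Their median width was 577.5 bp (95% interval 537 to 616 bp), with quartiles of 257.75 and 788.5 bp. Other peaks had a median of 612 bp (608 to 616 bp). The narrow form was more frequent among the isolated peaks: 237 of them (29.8%) measured up to 300 bp, against 20.3% of other peaks, and 15.7% against 9.60% measured up to 200 bp. Above 500 bp lay 453 isolated peaks (56.9%), against 63.0% of other peaks. Between these forms the isolated peaks were sparse, with 13.3% at 301 to 500 bp.

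**Figure D1:**
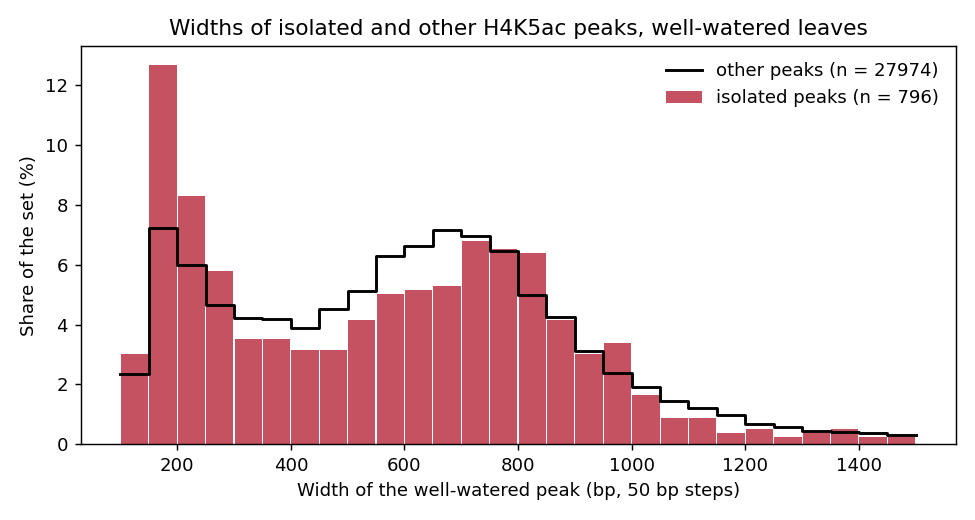
Widths of the 796 isolated peaks (bars) and the 27974 other peaks (line) in the well-watered list, as a share of each set (vertical axis, %) in 50 bp steps (horizontal axis); 9 isolated peaks over 1500 bp lie beyond the axis. Both sets have a narrow group near 200 bp, larger among the isolated peaks, and a broad one near 700 bp.

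The score that the authors' peak caller gave each peak, whose scale is not stated, was used only within a list. For their width, isolated peaks ranked high. Their median well-watered score was 408, against 318 for other peaks weighted to the same widths, and the difference of 90 had a 95% interval of 4 to 182. The gap was seen at both ends of the width range. Isolated peaks up to 200 bp wide had a median score of 86 against 55, and those of 701 to 900 bp 1202.5 against 847.5. At 301 to 500 bp the order was turned, with 134.5 against 148. In the drought-stressed list the peaks paired with isolated ones also had the higher median score at like drought-stressed width, 488 against 359 (difference 129, interval 67 to 203). The top decile of well-watered scores, above 1446, held 139 isolated peaks (17.5%) and 9.78% of other peaks. Isolated peaks were scarcer in the middle of the scale, with 48 of them (6.03%) in the sixth decile.

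The highest score belonged to a peak on chromosome 8 from 7268422 to 7268723. It was only 302 bp wide, scored 59418 and ranked 3 in the well-watered list. Its drought-stressed partner was 287 bp wide and scored 45734 in its own list. Second was a peak on chromosome 5 from 9255537 to 9256020 (484 bp, score 27455), matched by a drought-stressed peak of 481 bp. The next, on chromosome 10 from 10812015 to 10812606, scored 17500 and measured 592 bp, with a partner of 617 bp. The last 2 of the 5 were both on chromosome 11. The one from 13116555 to 13117079 measured 525 and 303 bp in the lists, and the one from 15550158 to 15550878 721 and 723 bp. Apart from the one of 525 bp, the leading peaks differed by at most 25 bp between the lists.

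Peaks that were both narrow and high in score were more common in isolation. Among the isolated peaks 8 (1.01%, interval 0.510% to 1.97%) were at most 300 bp wide and in the top score decile, against 82 (0.293%, 0.236% to 0.364%) of the other peaks. This class was drawn up after the values were seen. Isolated peaks were also more often up to 300 bp wide (29.8% against 20.3%) and more often in the top decile (17.5% against 9.78%). Whether the joint class exceeds what these shares alone would give was not tested. All 8 were found again under drought, as were 79 of the 82 other peaks of this class (96.3%). One of them, on chromosome 2 from 14254449 to 14254663, lay 83468 bp from its nearer neighbour, the largest such distance on that chromosome.

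More than other peaks, isolated peaks lay toward the middle of the chromosomes, where other peaks were sparse. When each chromosome was cut into 10 equal parts, numbered from its start, parts 3 to 6 held 481 isolated peaks (60.4%) and 28.7% of other peaks. These parts had the smallest shares of other peaks, so the rule itself favours isolated peaks there. The grouping of parts 3 to 6 was not fixed by the rule and is off centre. Part 7 held 9.30% of isolated and 9.88% of other peaks. Part 10 held 26 isolated peaks (3.27%) against 14.2%. The 1 Mb window around an isolated peak held a median of 51 well-watered peaks, against 92 for other peaks, a difference that the rule favours. Chromosomes differed widely, but the rule itself favours a higher isolated share where a chromosome has fewer peaks for its length. The chromosome values are therefore a description, and whether they differ beyond peak density was not tested. On chromosome 11, 97 of 1657 peaks (5.85%) were isolated, on chromosome 12 5.03% and on chromosome 10 4.54%. Chromosomes 3 and 2 had the lowest shares, with 1.27% and 1.49%. On chromosome 12 the gaps beside isolated peaks made up 31.6% of the length, and on chromosome 3 10.4%.

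**Figure D2:**
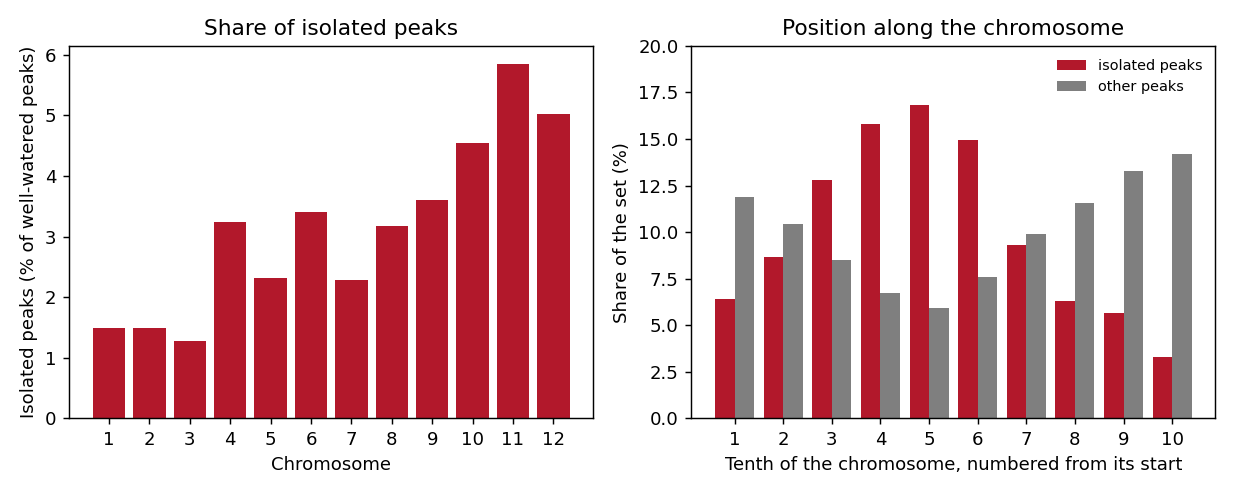
Left, isolated peaks as a share (%) of the well-watered peaks of each chromosome, from 1.27% on chromosome 3 to 5.85% on chromosome 11. Right, share (%) of the isolated and of the other peaks in each of 10 equal parts of the chromosomes, numbered from the start; the isolated peaks are most frequent in part 5, where the other peaks are least frequent.

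Many isolated peaks followed one another. Of the 796, 389 had no isolated neighbour, and 407 formed 157 runs of 2 or more. A gap over 25000 bp counts for the peaks at both of its ends, so the rule itself favours runs. The counts are a description, and no comparison was made for them. The fullest 1 Mb window, chromosome 12 from 13 to 14 Mb, held 10 isolated peaks among 44. On chromosome 4 from 10 to 11 Mb, 9 of 19 peaks were isolated.

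The longest run had 9 peaks and spanned 648.6 kb on chromosome 4 from 10532567 to 11181180. From left to right the well-watered widths were 314, 370, 783, 328, 706, 172, 679, 488 and 919 bp, with scores of 257, 2352, 1531, 1598, 1614, 41, 1090, 116 and 110. Under drought the first 5 met peaks of 171, 251, 758, 326 and 617 bp. The sixth, the narrowest and lowest in score, had no counterpart, and the distance to the nearest one was 45817 bp. The seventh met a wider peak of 762 bp and the eighth a narrower one of 239 bp. The ninth met a pair of peaks, 412 and 209 bp wide. No drought-only peak lay in the gaps of this run. So 8 of 9 were retained, 6 of them narrower.

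A second run on chromosome 4, of 7 peaks from 17236405 to 17876921, fared differently: 4 were retained. Its widths were 372, 234, 262, 750, 559, 862 and 608 bp. The 3 that were lost, 234, 262 and 608 bp wide, had scores of 60, 116 and 75, and the retained ones 81, 1677, 249 and 1331. Its gaps held 4 drought-only peaks. The run of 7 peaks on chromosome 11 from 15909397 to 16196167 kept 6. The lost peak was again the narrowest and lowest in score (180 bp, score 36). Its 900 bp peak with a score of 4511 met 893 bp under drought, and its 740 bp peak met 732 bp.

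Most isolated peaks were found again under drought. Of the 796, 649 (81.5%, 95% interval 78.7% to 84.1%) were overlapped by at least 1 bp of a drought-stressed peak, called retained here, against 84.9% of all well-watered peaks on the 12 chromosomes. The retained peaks had a median width of 669 bp and a median score of 646. The 147 that were not retained had medians of 209 bp and 65. Of these 147, 113 (76.9%) were at most 300 bp wide, and 13 were over 500 bp.

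The retained share was lower in the narrower classes. Of isolated peaks up to 200 bp, 55 of 125 (44.0%, 35.6% to 52.8%) were retained. At 201 to 300 bp the share was 61.6% (52.4% to 70.1%), and at 301 to 500 bp 80.2% (71.6% to 86.7%). Retention was close to complete above that, with 93.6% at 501 to 700 bp, 98.4% at 701 to 900 bp and 107 of 107 over 900 bp. Other peaks followed the same order, with 36.7%, 55.6%, 81.7%, 96.6%, 99.0% and 99.3% in these classes. Weighted to the widths of the isolated peaks, other peaks had a retained share of 80.3%. The difference of 1.24 percentage points had an interval of -1.16 to 3.64, so retention of isolated peaks could not be told apart from that of other peaks as wide. The 5270 peaks with a distant neighbour on only 1 side had a retained share of 84.9%.

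**Figure D3:**
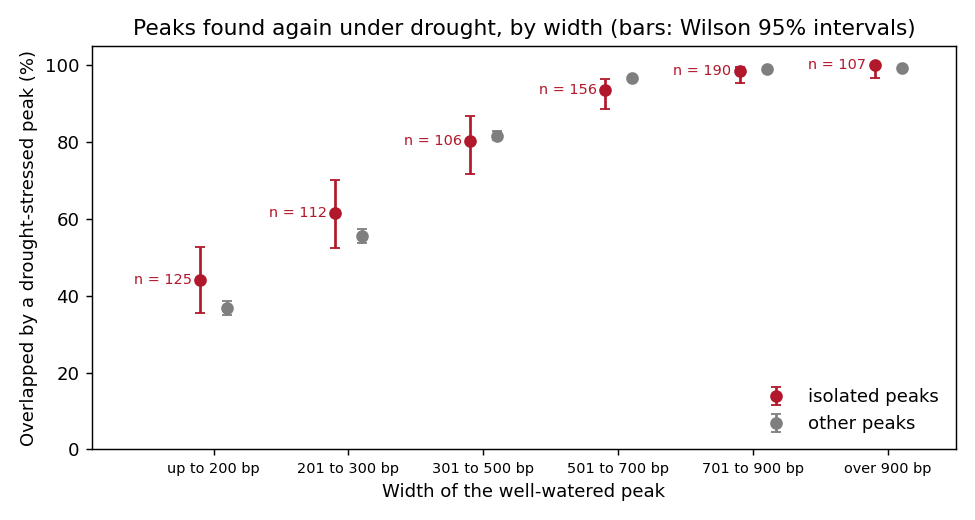
Share (%) of well-watered peaks overlapped by a drought-stressed peak, by width class (horizontal axis), for isolated and other peaks; points are shares and bars Wilson 95% intervals, which cover counting error only. Both sets go from under 50% in the narrowest class to over 98% above 700 bp.

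At like score the picture differed. Weighted to the scores of the isolated peaks, 85.2% of other peaks were retained. The isolated peaks were below them, with a difference of -3.67 percentage points (interval -5.96 to -1.38). The intervals of the sets did not overlap in score deciles 3, 4, 5, 6 and 8, with the lower share in the isolated peaks each time. In deciles 3 and 4, 64.3% (53.6% to 73.7%) of 84 and 83.5% (74.2% to 89.9%) of 85 isolated peaks were retained, against 78.6% and 94.3% of other peaks. In deciles 5, 6 and 8 the isolated and other shares were 93.8% and 98.7%, 95.8% and 99.6%, and 96.9% and 99.9%. Only 4, 2 and 2 isolated peaks were lost there. In deciles 1 and 2, where 57 and 37 isolated peaks were lost, the intervals overlapped. Isolated peaks had shares of 28.75% and 53.2% there, against 28.1% and 51.9% of other peaks. Isolated peaks of deciles 3 and 4 were also narrower, with medians of 306 and 435 bp against 407 and 526 bp. With width and score matched together the difference was -1.61 points (interval -3.93 to 0.715). Above the median score of the list, and without matching for width, 5 of 403 isolated peaks (1.24%) and 19 of 13966 other peaks (0.136%) were not retained.

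Those 5 were the highest-scored isolated peaks without a drought-stressed counterpart. They lay on chromosome 8 from 13308819 to 13308978 (160 bp, score 911) and from 10016850 to 10017185 (336 bp, 500), on chromosome 9 from 2851999 to 2852139 (141 bp, 889), on chromosome 4 from 12745608 to 12746043 (436 bp, 708) and on chromosome 7 from 20502693 to 20502842 (150 bp, 519). Each was at most 436 bp wide. Their distances to the nearest drought-stressed peak ran from 32916 bp on chromosome 7 to 74849 bp on chromosome 4. The widest isolated peak to be lost lay on chromosome 12 from 19788649 to 19789500. It measured 852 bp, had a score of 110, and was picked out after its values were seen.

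Where an isolated peak was lost, the rule roughly sets a minimum for the stretch left without a peak, unless a drought-only peak arose in it. Loss of a neighbouring well-watered peak lengthened the stretch. The following distances are therefore a description. The median distance to a drought-stressed peak was 35115 bp, and it was more than 25000 bp for 126 of the 147 (85.7%). In 9 cases a drought-stressed peak lay within 1000 bp. The peak-free stretch over the lost position had a median of 106.8 kb in the drought-stressed list and exceeded 100 kb in 84 cases. A stretch that covered several lost peaks was counted once for each of them. The longest measured 349.0 kb.

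Of the 10 most remote isolated peaks, 8 were retained, and all 8 were narrower under drought, by 1 to 121 bp. Remote peaks as a class were not so uniform. With the nearer neighbour over 60 kb away 38 of 63 pairs (60.3%) were narrower and 38.1% wider. Their median change was -15 bp (-30 to 2 bp), and the width-matched difference from pairs with both neighbours near was -8.78 points (-20.3 to 2.72). The shares showed no steady decline with distance. Narrower pairs made up 72.7% at 25 to 30 kb, 75.3% at 30 to 40 kb and 77.5% at 40 to 60 kb. The nearer neighbour of the most remote, on chromosome 4 from 14404428 to 14404749, was 151301 bp away. It was 322 bp wide, and its drought-stressed partner 321 bp. The next, on chromosome 9 from 7594861 to 7595111 (251 bp, score 81), was lost. So was one on chromosome 6 from 8510234 to 8510451 (218 bp, score 65). Among the retained ones, the peak on chromosome 12 from 9083413 to 9084391, scored 5922 and 121459 bp from its nearer neighbour, had widths of 979 and 952 bp.

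The retained share and the width were both lower at larger distances. With the nearer neighbour 25 to 30 kb away, the median width was 631 bp and 86.1% of 273 peaks were retained (81.5% to 89.7%). At 40 to 60 kb the values were 512 bp and 74.8% of 163 (67.7% to 80.9%), and over 60 kb 398.5 bp and 74.4% of 86 (64.3% to 82.5%). Peaks with both neighbours near, weighted to the widths of each class, had retained shares of 83.1%, 77.3% and 73.6%. The differences were 3.03 points (-0.808 to 6.86), -2.43 (-7.88 to 3.02) and 0.817 (-7.55 to 9.18), and each interval included 0. Just outside the rule, at 20 to 25 kb, 84.2% of 412 peaks were retained, with a median width of 662 bp.

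By chromosome the retained share ran from 71.8% of 85 on chromosome 4 (61.4% to 80.2%) to 93.8% of 48 on chromosome 2 (83.2% to 97.9%). Chromosomes 12 and 8 followed chromosome 4 with 72.3% and 73.0%. Isolated peaks were narrow on these 3, with medians of 461 to 469 bp, against 680.5 bp on chromosome 2. Against isolated peaks of like width on the other chromosomes the difference was -8.14 points on chromosome 4 (-17.6 to 1.27) and 9.37 on chromosome 2 (-0.198 to 18.9). The intervals of all 12 such differences included 0. Along the chromosomes, part 1 stood low, with 31 of 51 retained (60.8%, 47.1% to 73.0%). Against isolated peaks of like width elsewhere the difference was -17.6 points (-29.8 to -5.34). It was singled out among 10 parts after the values were seen. Chromosome 4 gave 14 of these peaks and 8 of the 20 losses, and without it the difference was -12.8 points (-25.9 to 0.270). Other peaks of part 1 had a retained share of 86.5%.

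Isolated regions found under both regimes were mostly narrower in the drought-stressed list, as regions were in general. Of the 649 retained, 637 formed 1-to-1 pairs, in which either peak overlaps no other peak, and 12 met a pair of drought-stressed peaks. In the pairs 467 (73.3%, 69.7% to 76.6%) had the smaller drought-stressed peak, 164 the larger one and 6 equal ones, beside 75.1% narrower among all pairs on the 12 chromosomes. The median change, drought-stressed minus well-watered, was -39 bp (-48 to -30 bp). Median widths were 658 bp well-watered and 593 bp under drought. The left end lay a median of 13 bp and the right end 17 bp further in. Both ends lay further in for 269 pairs (42.2%, 38.5% to 46.1%), against 47.6% (46.9% to 48.2%) of other pairs, whose ends lay a median of 20 and 21 bp further in. Both lay further out for 51 pairs (8.01%) against 8.89%. These end shifts were not matched for width.

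At like width no difference in narrowing was detected at the 25000 bp limit, but it depended on the setting. Weighted to the widths of the isolated pairs, 72.2% of other pairs were narrower, a difference of 1.09 points (-2.22 to 4.41), and their median change was -46 bp, a difference of 7 bp (-2 to 16 bp). With limits of 15000 and 20000 bp the isolated pairs lost less, by 9 bp (2 to 14 bp) and 8.5 bp (3 to 17 bp), and matched by score by 12 bp (3 to 21 bp). Relative to the well-watered width the medians were -6.19% and -7.56% (difference 1.38 points, -0.469 to 2.43). The change depended on width in the isolated pairs as elsewhere. Up to 200 bp 33 of 55 isolated pairs and 70.2% of other pairs were wider, with medians of 11 bp (-1 to 25 bp) and 15 bp (13 to 20 bp). Over 900 bp 84 of 96 (87.5%) and 86.3% were narrower, with medians of -115 bp (-156 to -68 bp) and -105 bp (-110 to -99 bp). Classes cut by the well-watered width favour a gain in the narrow ones, in both sets. Matched by the mean width of the pair, the shares narrower were 73.3% and 73.4%.

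**Figure D4:**
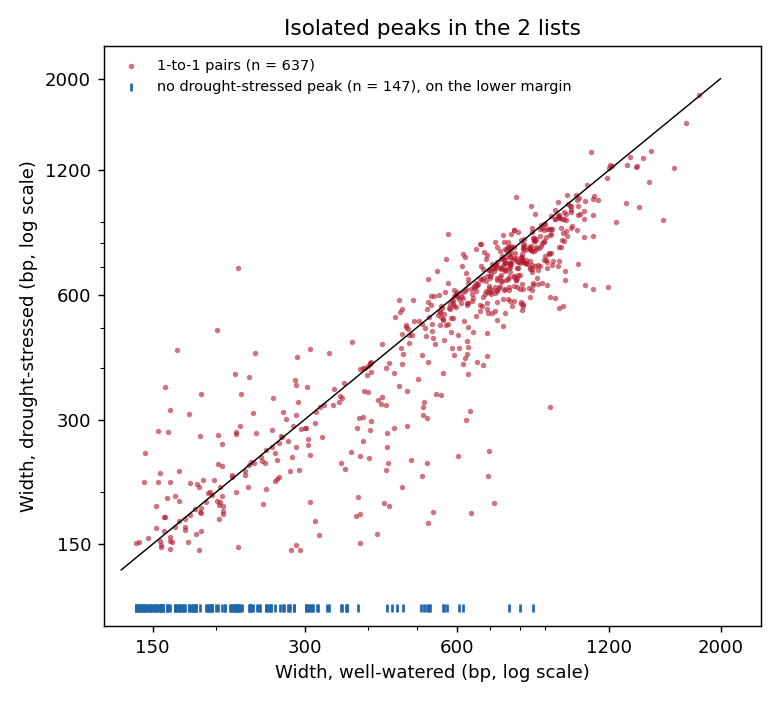
Well-watered width (horizontal axis, bp, log scale) against drought-stressed width (vertical axis, bp, log scale) of the 637 isolated 1-to-1 pairs, with the line of equal width. Blue ticks on the lower margin mark the widths of the 147 isolated peaks with no drought-stressed peak; the 12 that met a pair of peaks are not drawn. Most broad pairs lie just below the line, the narrow pairs scatter around it, and the lost peaks crowd at the narrow end.

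The pairs with the largest changes were named for them, so these values are a description. A 221 bp peak on chromosome 9 (3278280 to 3278500) had a partner of 698 bp, the largest gain. One of 201 bp on the same chromosome (21427323 to 21427523) had a partner of 495 bp, and one of 168 bp on chromosome 8 (795859 to 796026) a partner of 443 bp. The well-watered scores of these 3 were low, at 45, 175 and 21. The largest losses were 3 on chromosome 6. From 28586333 to 28587867, 1535 bp met 913 bp. From 24463373 to 24464291, 919 bp met 322 bp, and from 14078380 to 14079574, 1195 bp met 628 bp. The first of these 3 scored 1537 in the well-watered list and the others 104 and 87. The remaining ones among the 5 largest changes in either direction were gains of 267 and 250 bp and changes of -523 and -494 bp.

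Of the 107 isolated peaks over 900 bp wide, 11 were divided under drought (10.3%, 5.84% to 17.5%), beside 361 of 4217 other peaks (8.56%, 7.75% to 9.44%). Of the 5 widest, 3 were. The widest, on chromosome 3 from 16837134 to 16839355, was 2222 bp wide and met drought-stressed peaks of 1093 and 638 bp. Another, on chromosome 2 from 12464329 to 12466109 (1781 bp), met peaks of 1033 and 269 bp, and the last of the 5 widest, on chromosome 3 from 25908502 to 25910196 (1695 bp), met peaks of 330 and 637 bp. The other 2 stayed whole. On chromosome 1 from 6077114 to 6078924, 1811 bp met 1823 bp, and on chromosome 10 from 19858751 to 19860455, 1705 bp met 1566 bp. Of the 12 divided peaks 11 were over 900 bp wide. The exception was the 786 bp peak on chromosome 11 in the run of 7, which had a score of 65 and met peaks of 302 and 183 bp.

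Isolation itself mostly persisted. Of the 637 pairs, 565 (88.7%, 86.0% to 90.9%) were isolated by the same rule in the drought-stressed list. The other 72 all had a drought-only peak in a gap beside them. The rule nearly fixes this, because the gaps hold no well-watered peak. Apart from shifted peak ends, only a drought-only peak could end the isolation of a pair. The share is thus a description of how often such peaks arose close by. That list held 880 isolated peaks in all. The 565 were 64.2% of these and 71.0% of the 796. A further 235 overlapped only well-watered peaks that were not isolated, and 80 overlapped none.

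New peaks under drought arose in the gaps around isolated peaks about as often as in other long gaps. Over the 12 chromosomes 4.88% of drought-stressed peaks overlapped no well-watered peak. Of these drought-only peaks 194 lay in gaps beside isolated peaks, and 188 isolated peaks (23.6%) had at least 1 beside them, 14 of them on both sides. No such share is given for other peaks. Counted by gap, 12.8% of the gaps beside isolated peaks held at least 1, near the 11.9% of other gaps over 25000 bp. Of the shorter gaps, up to 25000 bp, 3.04% held at least 1. A gap holds no well-watered peak by definition, so rates were read per length of gap. They came to 2.59 per Mb (exact Poisson 95% interval 2.23 to 2.98) beside isolated peaks. Other gaps over 25000 bp had 2.83 per Mb (2.50 to 3.19), and the gaps up to 25000 bp had 4.37 (4.07 to 4.68). The rate was thus lower in long gaps, and no difference was detectable between long gaps with and without an isolated peak at an end. Beside isolated peaks it was 3.14 per Mb (2.53 to 3.85) in gaps of 25 to 50 kb, 2.67 (2.08 to 3.38) at 50 to 100 kb and 1.69 (1.17 to 2.35) over 100 kb. Other gaps had 3.61, 1.98 and 1.64.

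**Figure D5:**
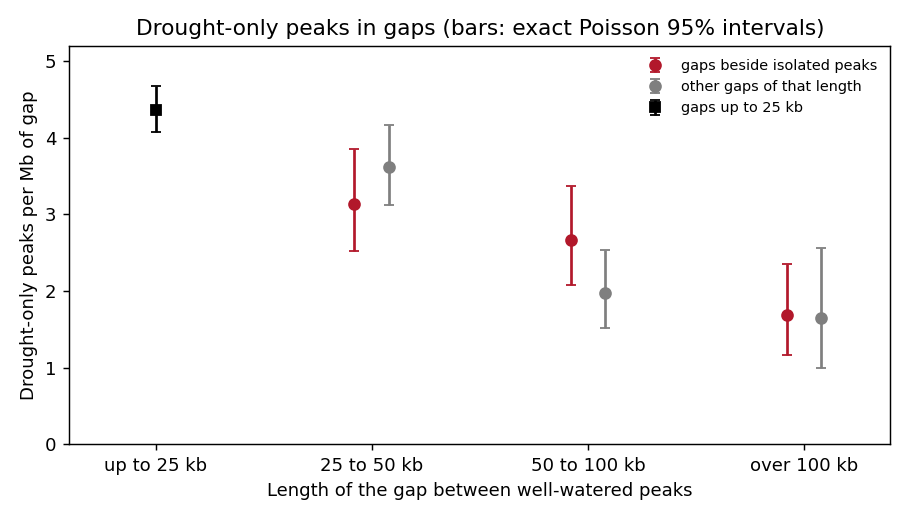
Drought-only peaks per Mb of gap between consecutive well-watered peaks (vertical axis), by gap length (horizontal axis), for gaps beside isolated peaks, other gaps of that length and all gaps up to 25 kb; bars are exact Poisson 95% intervals. The rate is 4.37 per Mb in the short gaps and 1.69 and 1.64 per Mb in the longest ones.

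These drought-only peaks were small. Their median width was 190 bp (183 to 206 bp), like the 189 bp (185 to 193 bp) of the 1078 drought-only peaks elsewhere, and their median score 51 beside 45. They were spread through the gaps with some excess near the ends: 56 of 194 (28.9%, 22.9% to 35.6%) lay within 5000 bp of a well-watered peak, where 17.9% of the gap length lies. In the other long gaps the shares were 30.3% of peaks and 21.9% of length. The median distance to the isolated peak was 23804.5 bp, and 18 lay within 1000 bp of one. Lost isolated peaks had a drought-only peak beside them in 40 of 147 cases (27.2%), and retained ones in 148 of 649 (22.8%). These shares were not matched for gap length. The median nearer and farther gaps were 37391 and 69619 bp for lost peaks, against 33245 and 57647 bp for retained ones.

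The highest-scored drought-only peaks of these gaps tied at a score of 222. One, of 151 bp, lay on chromosome 5 (10430404 to 10430554), the other, of 213 bp, on chromosome 10 (10054520 to 10054732). Below them came peaks on chromosome 7 (12088614 to 12088818, score 205), chromosome 10 (5980095 to 5980248, 197) and chromosome 5 (10388464 to 10388689, 181). The remaining 5 of the first 10 scored 150 to 157 and were 145 to 317 bp wide. The closest of these 10 to an isolated peak, at 434 bp, was on chromosome 1 (18491415 to 18491731). The largest number around 1 isolated peak was 4, all on the right of an 811 bp peak on chromosome 2 from 9623080 to 9623890, picked out for this number. That peak met 622 bp under drought.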

How the data were processed

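The deposited data are 2 BED peak lists, 1 per condition. Per the labels, the libraries of a condition name a common list, so no list gives a value per library. BWA, SAMtools, MACS2 and deepTools were used, per the submitters' processing notes. Not given in the sources used here are versions, thresholds, any input control and the build. Coordinates are those of the lists, printed 1-based. The fifth column holds the authors' score per peak, on a scale not stated. Read depth is unknown.

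From the lists, overlaps of at least 1 bp, gaps and widths were computed with Python 3.11.15, numpy 2.4.6, pandas 2.3.3 and scipy 1.17.1. Overlap counts were checked with bedtools 2.31.1, and the computation on a copy of the well-watered list with planted changes. The planted losses were drawn without regard to width or score, so that check did not test the matching. Peaks of the unplaced sequences were not used. Other peaks were weighted to the isolated peaks in 20 width bins (5 width by 4 score bins when both were matched, and 5 width bins for classes of isolated peaks). Shares carry Wilson, medians order-statistic and rates exact Poisson 95% intervals, which cover counting error only and take neighbouring peaks as independent. The interval of a difference in medians moves the isolated median alone. The available gene table names an assembly with no stated link to the lists and was not used. Regions named are the most remote, highest-scored, widest, lost, most changed and drought-only ones and the longest runs, by a written rule. The members and lists were chosen with earlier results of these data known.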

Additional observations from a re-analysis of the deposited data

How the results depend on the processing

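Of 193 alternative values for 11 results, 32 lay outside the main interval or beyond 1.5 times the main count. Leaving out a chromosome gave 108 of the 193 and none of the 32, so all 32 came from the other settings. Among the results whose interval left out 0, only the median width change could have changed sign, and it stayed negative. The matched differences in retained share and in share narrower, whose main intervals included 0, did change sign between settings. Distance limits of 15000, 20000, 30000, 40000 and 50000 bp gave 2016, 1208, 523, 249 and 137 isolated peaks. The median width became 650 bp at 15000 bp, 461 bp at 40000 bp, 453 bp at 50000 bp and 757 bp above the median score. The retained share became 74.7% at 40000 bp, 73.7% at 50000 bp and 76.1% with 50% reciprocal overlap. It became 98.8% above the median score and 87.8% with the well-watered list shortened by score to equal length. Isolation was set anew in the shortened list, which held 887 isolated peaks. Both score settings leave out low-scored peaks, and the lost isolated peaks had a median score of 65. A higher share is therefore favoured by their construction. The width-matched difference in retained share became -1.57 points at 40000 bp, -1.90 at 50000 bp, -3.67 matched by score, -1.61 by width and score, and -2.59 (interval -4.97 to -0.216) when a drought-stressed peak within 1000 bp counted. That last setting favours peaks with close neighbours by its construction. The share narrower became 67.7% at 50000 bp and 82.2% above the median score, and its matched difference -3.55 points at 50000 bp. The median width change became -27 bp at 40000 and at 50000 bp and -51 bp above the median score. The matched difference in that change kept its sign, at 4 to 15 bp over the settings other than leaving out a chromosome, and its interval left out 0 at 15000 and 20000 bp and when matched by score. Drought-only peaks beside isolated peaks numbered 366, 85 and 55 at 15000, 40000 and 50000 bp, and with none within 1000 bp of a well-watered peak their rate was 2.23 per Mb. The share isolated in both lists was 91.7%, 80.9% and 76.8% at 15000, 40000 and 50000 bp. The causes of these shifts were not tested. Leaving out each chromosome in turn moved none of 9 results outside its interval. No paired analysis was possible because the deposited lists hold no value per library, which also means that no library could be dropped. The unknown depth limits what the narrow, low-scored peaks can show.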
